A study of Arabidopsis thaliana with 6 samples.

Results

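Described here are 9 B-type cyclins of Arabidopsis thaliana, in 3 subgroups, in seedlings in which the stomatal regulator MUTE had been switched on. The words family and subgroup below cover these 9 genes only. The members were taken by name or locus and not by any measured value, although earlier results of these data were known. The list holds CYCB1;1 to CYCB1;4 (AT4G37490, AT5G06150, AT3G11520 and AT2G26760), CYCB2;1 to CYCB2;4 (AT2G17620, AT4G35620, AT1G20610 and AT1G76310) and CYCB3;1 (AT1G16330). They are 9 of the 33511 rows of the deposited expression table, and all 9 were among the 19134 genes with enough signal to be tested. The first of them, CYCB1;1, stands in the table under its older name CYC1, which is used below. The row CYC2 was taken for CYCB1;3, because the RefSeq annotation gives that synonym to AT3G11520 and to no other locus, and it is likewise called CYC2 below.

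Both groups were whole Col-0 seedlings, 4 days old, homozygous for a MUTE cDNA in pER8. In this vector the inserted gene is transcribed by a chimeric activator that needs estradiol. The first group spent 8 h in liquid medium that held 10 µM estradiol, and the second (mock) the same time with the solvent DMSO. Each had 3 libraries, and each library was a pool of 40 to 50 seedlings. No library came from seedlings without the construct, so the contrast cannot separate MUTE from estradiol itself or from the chimeric activator. Tissues other than the stomatal lineage may also have made MUTE.

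A B-type cyclin binds a cyclin-dependent kinase (CDK) and activates it for entry into mitosis. Its transcript accumulates in late G2 and in mitosis, when three-repeat MYB factors (MYB3R) bind a short promoter element, the mitosis-specific activator (MSA), whose core reads AACGG. The protein is then marked for destruction by the anaphase-promoting complex (APC/C). CYCB1;1 (CYC1) is in wide use as a marker of dividing cells and is also known to be induced by DNA damage. MUTE, a basic helix-loop-helix protein of a class that binds the E-box CANNTG, drives the single symmetric division that makes the paired guard cells of a stoma. The study's title names that division.

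Libraries of this kind record transcript levels as FPKM, fragments scaled for transcript length and library size, so that levels of different genes can be compared. Sequencing depth estimated from the steps between low values was 41.2% of that of mock 1 in estradiol 1, 54.3% in estradiol 3 and 83.5% to 97.3% in the other libraries, with a factor of 2 uncertain in each. MUTE stood at 2946, 2964 and 3049 FPKM in the estradiol libraries, against 3.31, 1.89 and 1.90 FPKM in mock. Markers from the shoot, root, meristem and stomatal lineage lists were detected, as the label of whole seedlings implies, but not every gene of each list. Of 11 meristem and primordium markers 7 had enough signal to be tested. WUS (AT2G17950) and CLV3 (AT2G27250) were at only 0.01 to 0.08 FPKM. In such bulk tissue, more dividing cells and more transcript per dividing cell cannot be told apart.

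The bases before the genes are shown first, because they hold the element through which this family is known to be timed. For each member the 250 bases before the gene start annotated by RefSeq were read from assembly TAIR10.1 and searched for AACGG on both strands (CCGTT on the strand shown). The 6 members with the element in this window are printed with another member, CYCB1;4, without it there. Capitals mark the element, and each sequence runs 5′ to 3′ toward its gene.
CYC1 (chr4:17624309-17624558, minus strand): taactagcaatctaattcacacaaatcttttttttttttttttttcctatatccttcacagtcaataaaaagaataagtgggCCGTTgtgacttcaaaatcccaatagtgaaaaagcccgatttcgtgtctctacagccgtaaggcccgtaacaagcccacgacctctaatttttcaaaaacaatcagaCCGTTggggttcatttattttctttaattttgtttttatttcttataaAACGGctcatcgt
CYCB1;2 (chr5:1861704-1861953, minus strand): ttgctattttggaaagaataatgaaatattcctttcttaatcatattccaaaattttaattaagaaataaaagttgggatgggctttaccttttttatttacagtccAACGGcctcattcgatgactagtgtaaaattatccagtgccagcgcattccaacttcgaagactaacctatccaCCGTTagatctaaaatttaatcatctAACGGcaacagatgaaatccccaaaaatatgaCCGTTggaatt
CYC2 (chr3:3627274-3627523, minus strand): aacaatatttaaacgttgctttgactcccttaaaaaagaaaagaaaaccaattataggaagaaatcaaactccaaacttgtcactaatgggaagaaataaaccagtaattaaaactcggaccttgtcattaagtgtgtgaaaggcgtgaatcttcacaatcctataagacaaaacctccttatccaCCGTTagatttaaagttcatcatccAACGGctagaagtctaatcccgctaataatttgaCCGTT
CYCB2;1 (chr2:7663805-7664054, plus strand): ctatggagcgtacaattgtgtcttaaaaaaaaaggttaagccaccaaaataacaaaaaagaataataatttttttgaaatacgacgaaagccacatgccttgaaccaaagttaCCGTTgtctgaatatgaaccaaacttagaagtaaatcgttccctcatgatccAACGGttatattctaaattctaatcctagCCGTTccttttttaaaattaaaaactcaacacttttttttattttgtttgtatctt
CYCB2;2 (chr4:16901346-16901595, plus strand): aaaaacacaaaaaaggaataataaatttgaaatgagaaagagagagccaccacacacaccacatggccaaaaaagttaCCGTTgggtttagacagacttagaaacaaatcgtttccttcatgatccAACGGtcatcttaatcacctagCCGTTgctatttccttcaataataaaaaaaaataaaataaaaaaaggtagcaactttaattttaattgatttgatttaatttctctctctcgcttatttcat
CYCB2;3 (chr1:7137829-7138078, minus strand): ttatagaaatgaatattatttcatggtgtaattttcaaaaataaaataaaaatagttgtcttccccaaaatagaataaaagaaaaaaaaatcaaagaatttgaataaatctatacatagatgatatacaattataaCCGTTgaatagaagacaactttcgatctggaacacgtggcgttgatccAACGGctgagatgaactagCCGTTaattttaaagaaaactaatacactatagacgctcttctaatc
CYCB1;4 (chr2:11400868-11401117, plus strand): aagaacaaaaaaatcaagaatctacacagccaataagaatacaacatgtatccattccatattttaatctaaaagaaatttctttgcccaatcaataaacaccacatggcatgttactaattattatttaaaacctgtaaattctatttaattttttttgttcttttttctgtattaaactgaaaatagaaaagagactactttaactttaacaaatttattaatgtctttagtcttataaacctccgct

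The element was frequent before these genes. CYCB1;2 had 4 matches, and the other 5 members with the element had 3 each. Of the same windows before 27443 protein-coding genes, 20.6% held at least 1 match and 0.736% held at least 3. The other 3, CYCB1;4, CYCB2;4 and CYCB3;1, had no match in this window. Of the CDK partners and CKS subunits listed here 2 of 8 held at least 1 match and 0 held 3, and of the A-type cyclins 4 of 10 and 0. In 12 of 17 genes of mitosis and cytokinesis there was at least 1 match, and in 1 there were 3.

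Some of the elements also lay in like surroundings. The first 3 genes of the B2 subgroup share the run tgatccAACGG, which in each is the middle of their 3 matches and the one on the strand of the gene. CYCB2;1 and CYCB2;2 share a longer run, tcatgatccAACGGt. CYCB1;2 and CYC2 share tatccaCCGTTagat, but together with CYC1 they share no run longer than gaCCGTT. The 3 matches of CYC2 begin 64, 39 and 5 bases before the start, and 3 of the 4 matches of CYCB1;2 begin at 69, 43 and 11. E-box matches were found in 6 of the 9 windows and in 55.3% of all windows.

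**Figure D1:**
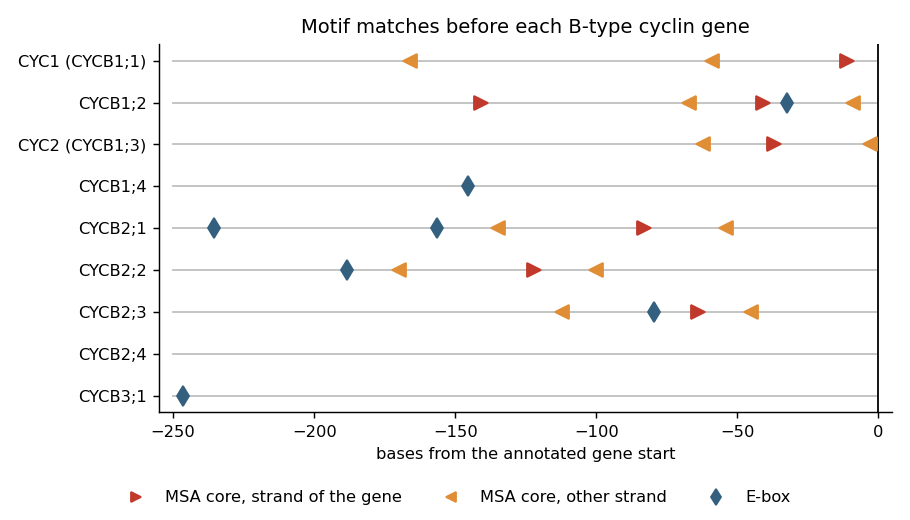
Positions of motif matches in the 250 bases before the annotated start of each B-type cyclin gene (x axis, bases from the start at 0). Triangles are matches to the MSA core and point right where it lies on the strand of the gene and left where it lies on the other strand. Diamonds are E-boxes, and in these windows 6 of the 9 genes carry 3 or 4 MSA cores while 3 carry none.

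With MUTE induced, 6 of the 9 B-type cyclins rose and 0 fell. The rises were small, from 0.21 to 0.38 on the log2(FPKM + 1) scale, a scale that understates the change of low genes. The 3 that did not pass, CYC1, CYCB2;1 and CYCB2;4, also had higher fitted values with estradiol. The threshold was an adjusted p of 0.05 in limma, a linear model fitted to all tested genes. Across all tested genes 36.2% passed it, 23.3% in the higher and 12.9% in the lower direction. The median log2 fold change of the members was 0.22, beside 0.05 for all tested genes.

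The B1 subgroup holds the marker CYC1 and its closest relatives. CYC1 was at 4.97, 4.62 and 5.04 FPKM in the estradiol libraries and at 4.72, 4.31 and 4.06 FPKM in the mock libraries. The groups overlapped, since estradiol 2 lay below mock 1. The log2 fold change was 0.13 (SE 0.0597, limma adjusted p 0.116), with a 95% interval of -0.0044 to 0.27, so a rise as large as that of several relatives lies within it.

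CYCB1;2 had the highest level of the family, with 11.57, 13.66 and 12.23 FPKM with estradiol against 10.64, 10.27 and 9.64 FPKM in mock. All estradiol values lay above all mock values, and estradiol 2 was the highest. The rise was 0.27 (SE 0.0631, limma adjusted p 0.0125). The locus AT1G34460, listed as CYC3, holds 11.3% of its 50-base exon stretches, so its value depends on how fragments were divided. CYC3 itself, not among the 9 members, was at 0.25 to 0.32 FPKM with estradiol and at 0.26 to 0.30 FPKM in mock.

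CYC2 had nearly equal values within each group, with 5.58, 5.49 and 5.55 FPKM in the estradiol group and 4.69, 4.71 and 4.54 FPKM in the mock group. The groups were apart by more than the spread of either. It rose by 0.21 (SE 0.0420, limma adjusted p 0.00609). CYCB1;4 was at 7.22, 7.95 and 7.35 FPKM with estradiol and at 6.10, 5.85 and 5.70 FPKM in mock, again without overlap. Its rise of 0.30 (SE 0.0496, limma adjusted p 0.00249) had the lowest p of the family, and its window held no MSA core.

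**Figure D2:**
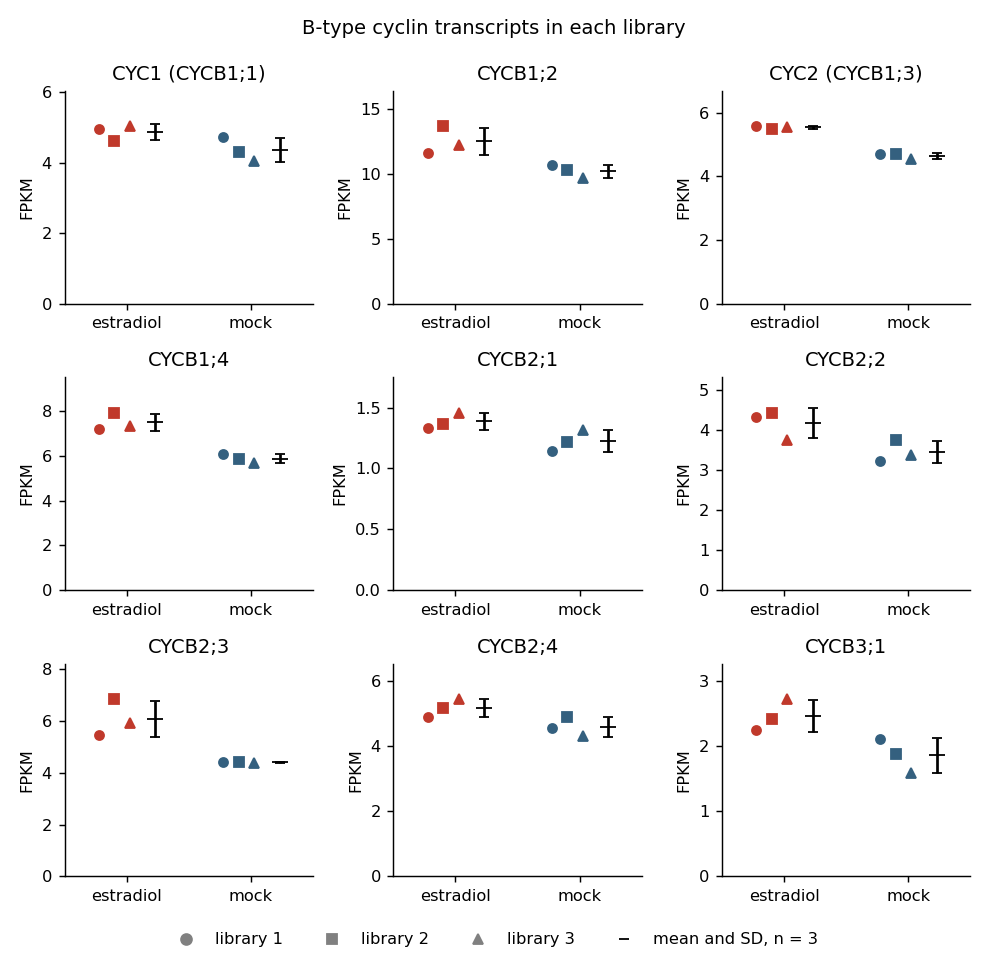
FPKM of the 9 B-type cyclins (y axis, from 0) in each estradiol and mock library. Symbols mark the library number and bars give the mean and SD of 3 libraries, and for 6 of the 9 genes all estradiol values lie above all mock values.

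Among the 9 members, the B2 subgroup, also cyclins of G2 and mitosis, held the largest change. On the log2(FPKM + 1) scale it also held the smallest, that of CYCB2;1, while by ratio of means CYC1 was the smallest, at 1.12 against 1.13 for CYCB2;1. CYCB2;3 was at 5.46, 6.85 and 5.94 FPKM with estradiol and at 4.42, 4.41 and 4.39 FPKM in mock. The mock values were nearly equal, while the estradiol values spread with estradiol 2 on top. It rose by 0.38 (SE 0.0706, limma adjusted p 0.00433), a 1.38-fold ratio of means. The nearby locus AT1G20590 holds 17.0% of its 50-base exon stretches, so fragments of the pair could not be told apart there. That locus is not among the 9 members and was looked at because of the shared stretches. It was itself at 6.19, 7.86 and 7.51 FPKM with estradiol and 4.82, 3.98 and 4.16 FPKM in mock.

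CYCB2;2 was at 4.33, 4.43 and 3.74 FPKM with estradiol, against 3.23, 3.74 and 3.36 FPKM in mock. Estradiol 3 and mock 2 had the same value, so the groups touched. The rise of 0.22 (SE 0.0705, limma adjusted p 0.0437) was close to the threshold and lost it under 8 of 13 alternatives, among them leaving out estradiol 1 (adjusted p 0.109), estradiol 2 (0.123), mock 1 (0.13) or mock 3 (0.115). Over all its alternatives the adjusted p ran from 0.0210 to 0.13.

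CYCB2;4 was at 4.91, 5.16 and 5.45 FPKM in the estradiol group and at 4.55, 4.91 and 4.31 FPKM in the mock group. Mock 2 equalled estradiol 1. The log2 fold change was 0.14 (SE 0.0578, limma adjusted p 0.0859), with a 95% interval of 0.011 to 0.28 before adjustment. CYCB2;1 had the lowest level of the family, 1.33, 1.37 and 1.46 FPKM with estradiol and 1.14, 1.22 and 1.32 FPKM in mock. Its groups were apart by only 0.01 FPKM, the step of the table's decimals. Its difference of 0.10 (SE 0.0621, limma adjusted p 0.238, 95% interval -0.043 to 0.24) did not pass.

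CYCB3;1 is the single B3 cyclin and is known for a role in male meiosis. It was at 2.25, 2.43 and 2.73 FPKM with estradiol and at 2.12, 1.88 and 1.59 FPKM in mock, without overlap. It rose by 0.28 (SE 0.0845, limma adjusted p 0.0337). That call was also lost under 8 of 13 alternatives, among them leaving out estradiol 2 (adjusted p 0.0657), estradiol 3 (0.10), mock 2 (0.0749) or mock 3 (0.101), in a range from 0.0263 to 0.162.

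**Figure D3:**
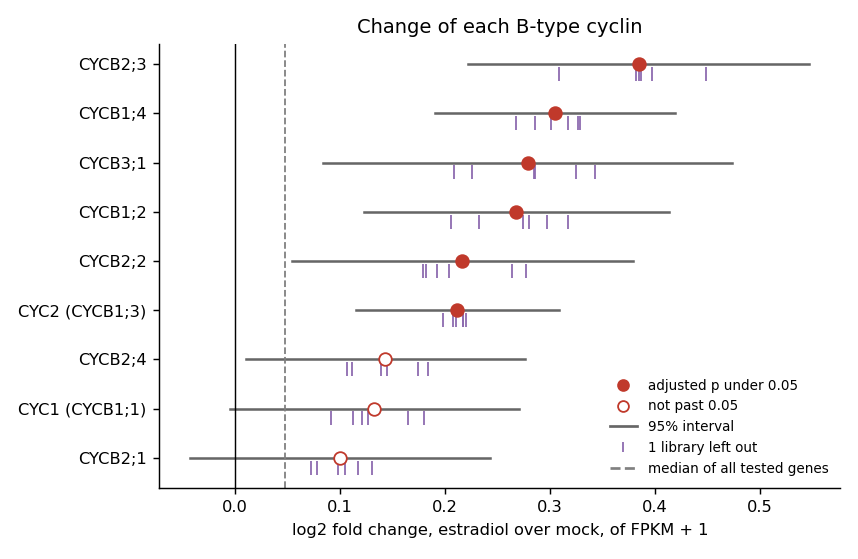
Log2 fold change of FPKM + 1, estradiol over mock (x axis), for each B-type cyclin, with its 95% interval (line), the values when 1 library is left out (ticks) and the median of all tested genes (dashed). Filled points passed an adjusted p of 0.05, and all 9 points lie right of the dashed line, between 0.10 and 0.38.

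The groups did not overlap for 6 of the 9 members, all higher with estradiol, where 33.7% of all tested genes did so. These were not all the same genes as the 6 that passed the test: CYCB2;1 was apart without passing, and CYCB2;2 passed with groups that touched. The fitted value was higher for all 9, beside 61.8% of all tested genes.

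Members with and without an MSA core in the 250 bases searched covered overlapping ranges of change. Among the 6 members with at least 3 matches, 4 passed and the median log2 fold change was 0.21, in a range from 0.10 to 0.38. Of the 3 members without a match, 2 passed and the median was 0.28, in a range from 0.14 to 0.30. With so few genes these values are a description.

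The order of the levels was much the same in both groups. With estradiol, CYCB1;2 stood first at 12.5 ± 1.07 FPKM and CYCB1;4 second at 7.51 ± 0.389 FPKM (SD, n = 3 for all means in this paragraph). In mock these were at 10.2 ± 0.506 and 5.88 ± 0.202 FPKM, also first and second. Below them came CYC1, CYC2 and the last 2 of the B2 genes by number, with means from 4.88 to 6.08 FPKM with estradiol and from 4.36 to 4.65 FPKM in mock. In mock the ranges of neighbours among these 4 overlapped, so their order was not set. CYCB2;3 was the third of the family with estradiol (6.08 ± 0.706 FPKM), where its range overlapped that of CYC2, and the fifth in mock (4.41 ± 0.0153 FPKM). The same 3 genes, CYCB2;2, CYCB3;1 and CYCB2;1, were the last in both groups, each apart from its neighbours.

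Summed over the family, the level was 47.6, 52.0 and 49.5 FPKM in the estradiol libraries and 41.6, 41.3 and 38.9 FPKM in mock. Every estradiol sum lay above every mock sum, with means of 49.7 ± 2.18 and 40.6 ± 1.48 FPKM (SD, n = 3), a ratio of 1.22. The 4 B1 genes made up 30.4 ± 1.21 FPKM with estradiol and 25.1 ± 1.11 FPKM in mock, a ratio of 1.21. The 4 B2 genes made up 16.8 ± 0.910 and 13.7 ± 0.532 FPKM, a ratio of 1.23. Within the B1 genes the ratio of means ran from 1.12 to 1.28, and within the B2 genes from 1.13 to 1.38. Whether the subgroups differ was not tested. Within the sum, CYCB2;3 held 11.5% to 13.2% with estradiol, against 10.6% to 11.3% in mock. CYCB1;4 held 14.9% to 15.3%, against 14.2% to 14.7%. The shares of the other 7 members overlapped between the groups.

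**Figure D4:**
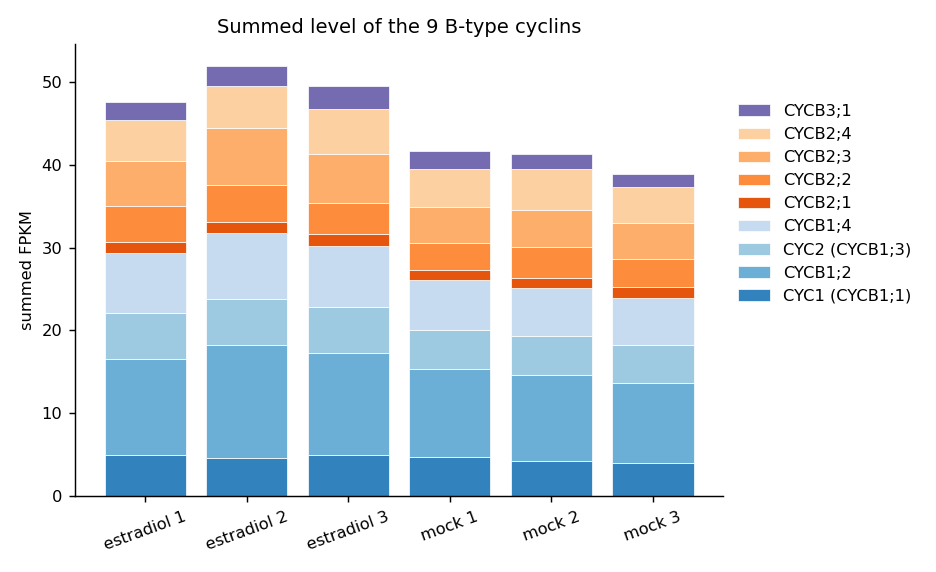
Summed FPKM of the 9 B-type cyclins (y axis, from 0) in each library, stacked by gene. The estradiol libraries reach 47.6 to 52.0 FPKM and the mock libraries 38.9 to 41.6 FPKM, and the highest member, at 9.64 to 13.7 FPKM, is the largest part of every bar.

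Whether members responded differently was tested against CYC1, as the log2 ratio of each other member to it in every library. Over 8 such comparisons the two-sided exact permutation test of 3 against 3 libraries cannot give a p below 0.1, so none could pass. The ratio of CYCB2;3 to CYC1 averaged 0.27 ± 0.193 with estradiol and 0.013 ± 0.0852 in mock (SD, n = 3), without overlap (exact p = 0.1, adjusted p = 0.32). For CYCB1;4 it averaged 0.53 ± 0.12 and 0.36 ± 0.0469, also without overlap (exact p = 0.1, adjusted p = 0.32). For the other 6 members the ratios overlapped, with exact p from 0.2 to 0.9.

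Within each group, 1 library was the lowest for most members. In the estradiol group, estradiol 1 had the lowest value for 6 of the 9 members, and in the mock group mock 3 had the lowest for 7. The same count over all genes was not computed, so these counts are a description. The median-of-ratios size factor, a measure of the typical gene, was 0.956 in mock 3 and 0.991 and 0.997 in the other mock libraries. In estradiol 1, 2 and 3 it was 1.02, 1.03 and 1.02, so estradiol 1 did not stand out by it. With these factors divided out, 4 of 9 members and 6440 of the 19134 tested genes passed. With quantile normalization 5 members and 6531 genes passed. The estimated depth was lowest in estradiol 1 and 3, although with a factor of 2 uncertain in each the order of the libraries is not fixed. With both left out, the log2 fold changes of the members ran from 0.069 for CYC1 to 0.54 for CYCB2;3. In that fit the spread came from the mock libraries, and the lone estradiol library was assumed to vary like them.

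Genes that act with the B-type cyclins were counted by list. The list of CDK partners and CKS subunits holds CDKs, the CKS proteins that bind them, and WEE1, a kinase that inhibits CDKs. All 8 of its genes passed in the higher direction, with a median log2 fold change of 0.49. CDC2B (AT3G54180), a B1-type CDK, was at 13.3 ± 0.671 FPKM with estradiol and at 6.59 ± 0.116 FPKM in mock, a change of 0.92. CDKB2;1 (AT1G76540), a kinase of G2 and mitosis, was at 23.0 ± 3.55 and 11.7 ± 0.0961 FPKM, a change of 0.91 (SD, n = 3). Of the 8 A-type cyclins tested, 6 rose and the median was 0.42. CYC3B (AT5G11300), an A2-type cyclin, rose by 1.002 and CYCA1;1 (AT1G44110) by 0.66. Whether these lists differ from the B-type cyclins was not tested.

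The MYB3R factors act on the B-type cyclin promoters. MYB3R4 (AT5G11510), an activator of genes with the MSA, was at 2.92 ± 0.375 FPKM with estradiol and at 1.79 ± 0.0346 FPKM in mock (SD, n = 3), a change of 0.49 (limma adjusted p 0.00196). MYB3R1 (AT4G32730), which acts both as activator and repressor, was at 6.70 ± 0.131 and 5.03 ± 0.371 FPKM and rose by 0.35. Of the 4 tested genes of that list, which also holds SCL28, 3 rose. Among the proteins that destroy B-type cyclins or hold that machinery back, 9 of 18 tested APC/C genes rose and 0 fell, with a median of 0.16. OSD1 (AT3G57860), an inhibitor of the APC/C, was at 5.42 ± 0.452 FPKM with estradiol and at 3.01 ± 0.0551 FPKM in mock, and rose by 0.68. The subunit APC6 (AT1G78770) rose by 0.38.

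Genes of mitosis and cytokinesis rose in 13 of 16 tested cases, with a median of 0.36, led by the Aurora kinases AUR1 (AT4G32830, 0.67) and AUR3 (AT2G45490, 0.65). Because CYC1 also answers to DNA damage, genes of that response were counted, and 5 of 8 rose with a median of 0.30. The leading one, TSO2 (AT3G27060, 0.85), a subunit of ribonucleotide reductase, is also used in DNA replication of dividing cells.

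Tissue markers were set beside these values. The summed level of 11 meristem and primordium markers was 54.1 to 54.2 FPKM with estradiol and 51.8 to 56.0 FPKM in mock, so the groups overlapped. Its largest part was SCR (AT3G54220), at 23.9 ± 0.647 and 22.3 ± 1.34 FPKM (SD, n = 3), so markers of low level hardly count in it. In that list 1 gene rose, WOX5 (AT3G11260, 0.23), and 1 fell, ANT (AT4G37750, -0.21), of 7 tested. WOX5 was close to the threshold (limma adjusted p 0.0457, against 0.0103 for ANT). None of the 11 was at 0 in all libraries. The summed level of 4 root markers was 1187 to 1224 FPKM with estradiol and 1702 to 1759 FPKM in mock, and nearly all of it was PYK10 (AT3G09260), a glucosidase of the root. Of these 4 genes 3 fell, with changes of -0.52 for PYK10, -0.40 for EXPA7 (AT1G12560) and -0.28 for COBL9 (AT5G49270). The other, CASP1 (AT2G36100) of the Casparian strip, rose by 0.28. PYK10 was at 1180 ± 21.3 FPKM with estradiol and at 1694 ± 30.2 FPKM in mock, and CASP1 at 17.3 ± 0.642 and 14.0 ± 0.636 FPKM (SD, n = 3). For 3 shoot markers it was 11263 to 11779 and 10295 to 11194 FPKM, and LHCB3 (AT5G54270) rose by 0.27. For 8 stomatal lineage markers it was 139.5 to 171.2 and 34.5 to 37.8 FPKM, and 5 of them rose, SDD1 (AT1G04110) and POLAR (AT4G31805) the most, by 3.68 and 2.64. In that list 1 fell, EPF2 (AT1G34245), a peptide that restricts entry into the lineage, at 2.95 ± 0.566 FPKM with estradiol and 4.35 ± 0.431 FPKM in mock (SD, n = 3), a change of -0.44 (limma adjusted p 0.0144). The part of these shifts in the change of the B-type cyclins was not tested.

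**Figure D5:**
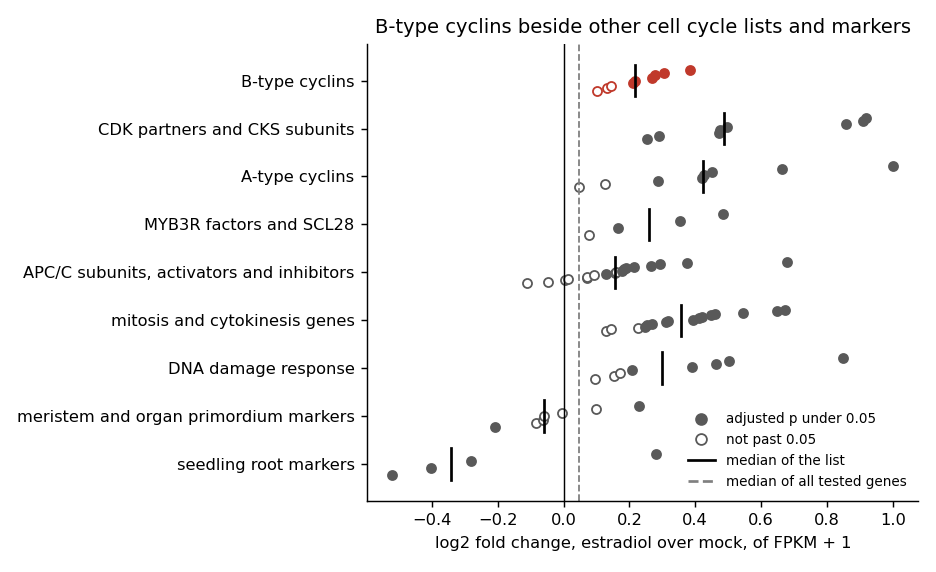
Log2 fold change of FPKM + 1, estradiol over mock (x axis), for each tested gene of the B-type cyclins (red) and of 8 other lists (grey). Filled points passed an adjusted p of 0.05, black lines are list medians and the dashed line is the median of all tested genes. The median is 0.22 for the B-type cyclins, 0.49 for the CDK partners, 0.42 for the A-type cyclins and -0.34 for the root markers.

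Many genes shared the form of the family's change. The mean profile of the 9 members over the 6 libraries, each gene set relative to its mock mean on the log2(FPKM + 1) scale, was compared with the 19041 other genes whose mean was at least 1 FPKM, the genes of the lists included. The nearest were c-NAD-MDH2 (AT5G43330), ckl3 (AT4G28880), MCM8 (AT3G09660), IBS1 (AT1G18670) and TFIIB (AT2G41630), with root mean square differences of 0.0114 to 0.0139. CYC2, the nearest member, differed by 0.0317, and 183 other genes were as near. For CYCB2;3, the farthest, the difference was 0.129 and 7462 other genes were as near.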

How the data were processed

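Messenger RNA of 6 pools of seedlings was read in pairs of 50 bases. The authors deposited FPKM values with 2 decimals, 1 row per gene name. The submitters' processing notes name TopHat2 2.0.13, DESeq2 and the build TAIR10. The quantifier, the annotation, the strand setting and any scaling between libraries are not given in the sources used here. There was 1 further numeric column, with no sample or measure named, which was not used. Row names were paired with locus tags through RefSeq (TAIR10.1), which matched 97.0% of rows. Of the 108 members and list genes, 103 had a row. Where a row name fits several loci, a match by symbol came before one by synonym. PARP1 (AT2G31320) of the DNA damage list was kept in this way, although its name also fits another locus.

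Genes with at least 1 FPKM in at least 3 libraries were kept. The tool limma 3.58.1 in R 4.3.3 compared log2(FPKM + 1) values (two-sided, eBayes with trend, no term other than the group), and p-values were adjusted by Benjamini-Hochberg over all kept genes. The fit was also run on simulated data with independent noise, few changed genes and no shift between libraries. These data differ in that, so the simulation does not show how reliable the calls are here. Exact permutation tests used scipy 1.17.1. Motif matches and 50-base exon stretches found elsewhere were searched in TAIR10.1. Depth could be estimated only as relative, so no counting intervals are given. Any 2 libraries of a group shared the exact value in at most 0.998% of kept genes. That pools of a group came from separate cultures is not stated, so the spread may be partly technical.

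Members and lists were chosen with earlier results of these data known. The genes named are the 9 members, MUTE, from each list the up to 2 genes past the threshold with the largest change, and the 5 nearest profiles. AT1G20590 and CYC3 were added for their shared sequence and PARP1 for its shared name. COBL9, CASP1, EPF2, WUS, CLV3 and SCR were added after their values were seen.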

Additional observations from a re-analysis of the deposited data

How the results depend on the processing

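Under the 14 alternative fits, of which the one with estradiol 2 alone was chosen after seeing the data, no B-type cyclin changed direction. CYCB1;2, CYCB1;4 and CYCB2;3 passed in all of them, CYC2 in all but the fit with estradiol 2 alone, and CYCB2;2 and CYCB3;1 in 5 of 13 each. The other 3 passed in none. With estradiol 2 alone against mock, 3 members and 3230 genes passed, against 6 and 6928. A fit on 4 libraries has fewer degrees of freedom. Leaving out each library in turn gave 4 to 5 members and 5337 to 5794 genes past the threshold. Members whose groups did not overlap numbered 6 to 8 in those fits and 5 under both scalings. With a library left out, groups are more easily apart for any gene. The share of all genes was not computed for these settings, so these counts are a description. The family's summed difference between estradiol and mock kept its direction throughout. Counts of calls in the other lists, recomputed after seeing the data, moved by over 1.5 times in 19 combinations of list and alternative and not in 121. The meristem list had 1 call or 0 in place of 2 in 11 of the 19, and the shoot list 0 to 3 in place of 1.

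The ratio of CYCB2;1 to CYC1, lower with estradiol by -0.032 (log2), turned to 0.0068 with a pseudocount of 0.1, 0.013 with quantile normalization and 0.039 without mock 3, in a range of -0.11 to 0.039 when 1 library is left out. That of CYCB2;4 turned from 0.011 to -0.020 without estradiol 2, -0.0013 without estradiol 3 and -0.041 without mock 1, in a range of -0.041 to 0.058. The cause was not tested.

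Replicate numbers did not pair the libraries (correlations of deviations -0.0064, 0.047 and -0.0020). With the replicate block 5 members and 6038 genes passed. Depth is known only as relative, so what it limits could not be given in counts.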
